A study of Mus musculus with 6 samples.

Results

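The proteasome is the protease that degrades proteins tagged with ubiquitin, and its subunit transcripts were followed here in soleus, a postural muscle of the mouse hindlimb. Members were all genes of the deposited tables named Psma, Psmb, Psmc or Psmd followed by digits only, which gave 39 of 43074 genes. They comprised 14 subunits of the constitutive core particle, 3 subunits of the immunoproteasome, 2 core subunits that are restricted to testis or thymus, and 20 genes of the regulatory particle, 3 of which act in its assembly. RNA sequencing of poly(A)-selected libraries was done on soleus of StarD7 mKO mice, read here as a muscle knockout of this lipid transfer protein, and of WT mice, 3 libraries each. Age, sex, strain, the deleted exons and the driver of the deletion are not given in the sources used here. The design text of the series gives 3 mice a group. Nothing ties a library to an animal in the labels, so p-values measure the spread between these samples.

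The core particle is a barrel of stacked rings. Its outer alpha rings gate the entry and its inner beta rings hold the catalytic sites. The regulatory particle caps the barrel, binds ubiquitin chains, removes them, and uses a ring of ATPases to unfold the substrate and thread it inside. In skeletal muscle this system turns over myofibrillar proteins, and its genes are commonly raised together in wasting. Interferon-gamma induces the immunoproteasome subunits, which replace the constitutive catalytic subunits in newly built particles. The transcription factor NRF1 (gene Nfe2l1) restores proteasome transcription through antioxidant response elements when proteasome activity is short.

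The sequences upstream of 4 catalytic genes are shown because they set side by side the constitutive subunits and the low immunoproteasome subunits described below. Each runs from 250 bases before to 50 bases after the transcription start in RefSeq on build GRCm38.p6, while the deposited values were made on GRCm39. The windows are chr14:54617946-54618245 on the minus strand for Psmb5, chr11:70525107-70525406 on the plus strand for Psmb6, chr17:34197945-34198244 on the plus strand for Psmb8 and chr17:34187281-34187580 on the minus strand for Psmb9. Capitals mark the core of the antioxidant response element, TGACNNNGC, in Psmb5 and Psmb6. In Psmb8 they mark the core of the gamma-activated site, TTCNNNGAA, an element of interferon-gamma response. No match to TTCNNNGAA lies in the Psmb9 window.
Psmb5: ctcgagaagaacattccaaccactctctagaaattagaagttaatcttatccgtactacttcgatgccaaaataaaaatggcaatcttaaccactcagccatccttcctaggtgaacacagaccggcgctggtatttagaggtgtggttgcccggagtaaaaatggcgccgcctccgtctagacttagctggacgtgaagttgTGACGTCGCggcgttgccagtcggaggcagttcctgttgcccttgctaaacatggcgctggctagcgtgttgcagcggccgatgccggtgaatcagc
Psmb6: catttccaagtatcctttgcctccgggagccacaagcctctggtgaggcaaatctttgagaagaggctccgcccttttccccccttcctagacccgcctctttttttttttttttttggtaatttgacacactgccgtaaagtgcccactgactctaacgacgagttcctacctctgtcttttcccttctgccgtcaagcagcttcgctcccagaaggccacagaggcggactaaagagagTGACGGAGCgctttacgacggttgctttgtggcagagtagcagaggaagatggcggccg
Psmb8: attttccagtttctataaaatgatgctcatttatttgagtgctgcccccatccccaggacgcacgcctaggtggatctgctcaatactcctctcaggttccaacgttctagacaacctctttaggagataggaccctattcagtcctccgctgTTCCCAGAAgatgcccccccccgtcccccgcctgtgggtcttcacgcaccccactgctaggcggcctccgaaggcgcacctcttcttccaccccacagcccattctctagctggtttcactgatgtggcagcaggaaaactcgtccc
Psmb9: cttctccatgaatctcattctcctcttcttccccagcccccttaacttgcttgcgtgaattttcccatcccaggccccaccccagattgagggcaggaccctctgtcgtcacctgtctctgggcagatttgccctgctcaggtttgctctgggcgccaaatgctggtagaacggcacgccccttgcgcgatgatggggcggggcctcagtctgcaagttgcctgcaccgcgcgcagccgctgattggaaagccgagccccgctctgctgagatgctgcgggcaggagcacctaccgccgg

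The antioxidant response element match began 47 bases before the start in Psmb5 and 9 bases before it in Psmb6. The gamma-activated site match of Psmb8 began 97 bases before its start. Windows were given for 32 of the 39 members and were searched on both strands. TGACNNNGC was found in 5 of the 32 members (15.6%), which were Psmb5, Psmb6, Psmc6, Psmd9 and Psmd12, against 14% of the 27025 genes with a window. TTCNNNGAA was found in Psmb8 and Psmd2 (6.25%, against 9.55% of all genes), and the core of the interferon-stimulated response element in Psmb3, Psmd4 and Psmd9 (9.38%, against 3.99%). The core of the ETS factor site, CCGGAAG, was in 10 members (31.2%), against 9.93% of all genes. The GC box, GGGCGG, was in 19 members (59.4%), against 38.2%. CCAAT was in 40.6% of members and 41.1% of all genes, and TATAAA in 12.5% and 15.7%. The windows of members had a median GC content of 56%, against 52.7% over all windows, and a match is a description of the letters only. GGGCGG and CCGGAAG hold mostly G and C, and neighbouring matches of both interferon elements can share letters. The motifs were not tested.

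The deposited values are TPM, a length-normalised abundance with the same total in every library. Reads recovered from them summed to between 42928382 and 51287715 per library. These sums cover only the 21168 genes with whole reads in all 6 libraries, so they are not the full depth. The targeted gene, Stard7, was at 21.8, 21.3 and 34.6 TPM in mKO, against 87.5, 95.4 and 94.99 TPM in WT (log2 fold change −1.83, SE 0.16, adjusted p = 0.00585, limma). All 9 skeletal muscle markers passed the filter on low values, and 0 of them were called. Their summed TPM in mKO was 89.7% of that in WT, and lower in every mKO library than in any WT library. Of the 9 log2 fold changes, 6 lay below 0. The part of this in the proteasome values was not tested. Genes of the mitochondrial genome made up 48.0% ± 1.05 of all TPM in mKO and 43.6% ± 1.49 in WT (SD, n = 3 each), and the rest of the constant total is shared by nuclear genes. In bulk muscle, fewer cells of a type and less RNA per cell cannot be told apart.

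No proteasome gene passed the test between mKO and WT. Of the 39 members, 37 reached 1 TPM in at least 3 libraries and were tested by limma on log2(TPM + 1) together with all other genes. With p-values adjusted over all 12301 genes, 0 of 37 were called higher and 0 lower, against 64 calls among all genes (0.52%), of which 12 were higher (0.0976%) and 52 lower (0.423%). At an unadjusted p under 0.05 there were 3 members, Psmc3, Psmc2 and Psmb7, all lower in mKO, which is 8.11% of members against 10.7% of all genes in either direction and 6.9% lower in mKO. The lowest adjusted p of a member was 0.363. That direction depended on scaling: with mitochondrially encoded genes left out, 8 members had an unadjusted p under 0.05, 8 higher and 0 lower in mKO. Without WT replicate 3 there were 6, all lower, and without mKO replicate 1, WT replicate 1 or WT replicate 2 there were 0. By limma-voom on recovered reads 0 of 36 members were called and 1 had an unadjusted p under 0.05, higher in mKO. Shares of all genes at this cut are not reported here for these other settings. The counts there are not read as results about the members.

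The differences were small and close to that of the transcriptome. The 37 log2 fold changes ran from −0.14 (Psmc3) to 0.14 (Psmd5), with a median of −0.04, beside a median of −0.01 over all genes tested. Below 0 lay 26 members (70.3%), against 55.1% of all genes, and below the median of all genes lay 20 members. For the 31 members of the assembled core and regulatory particles, no 95% interval, unadjusted for the number of genes, reached below −0.29 or above 0.22. These intervals had a median width of 0.28, against 0.42 for all genes tested. They hold for the TPM as deposited. With mitochondrially encoded genes left out the log2 fold change of Psmc1 moved from 0.07 to 0.188, and intervals of that setting are not reported here. The residual SD of log2(TPM + 1) between libraries of a group was below that of the median gene in 30 of the 31, with a median of 0.07 against 0.11 over all genes. These members were also more abundant, with a median level of 77.7 TPM against 8.44 TPM, and the part of abundance in the smaller spread was not tested.

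**Figure D1:**
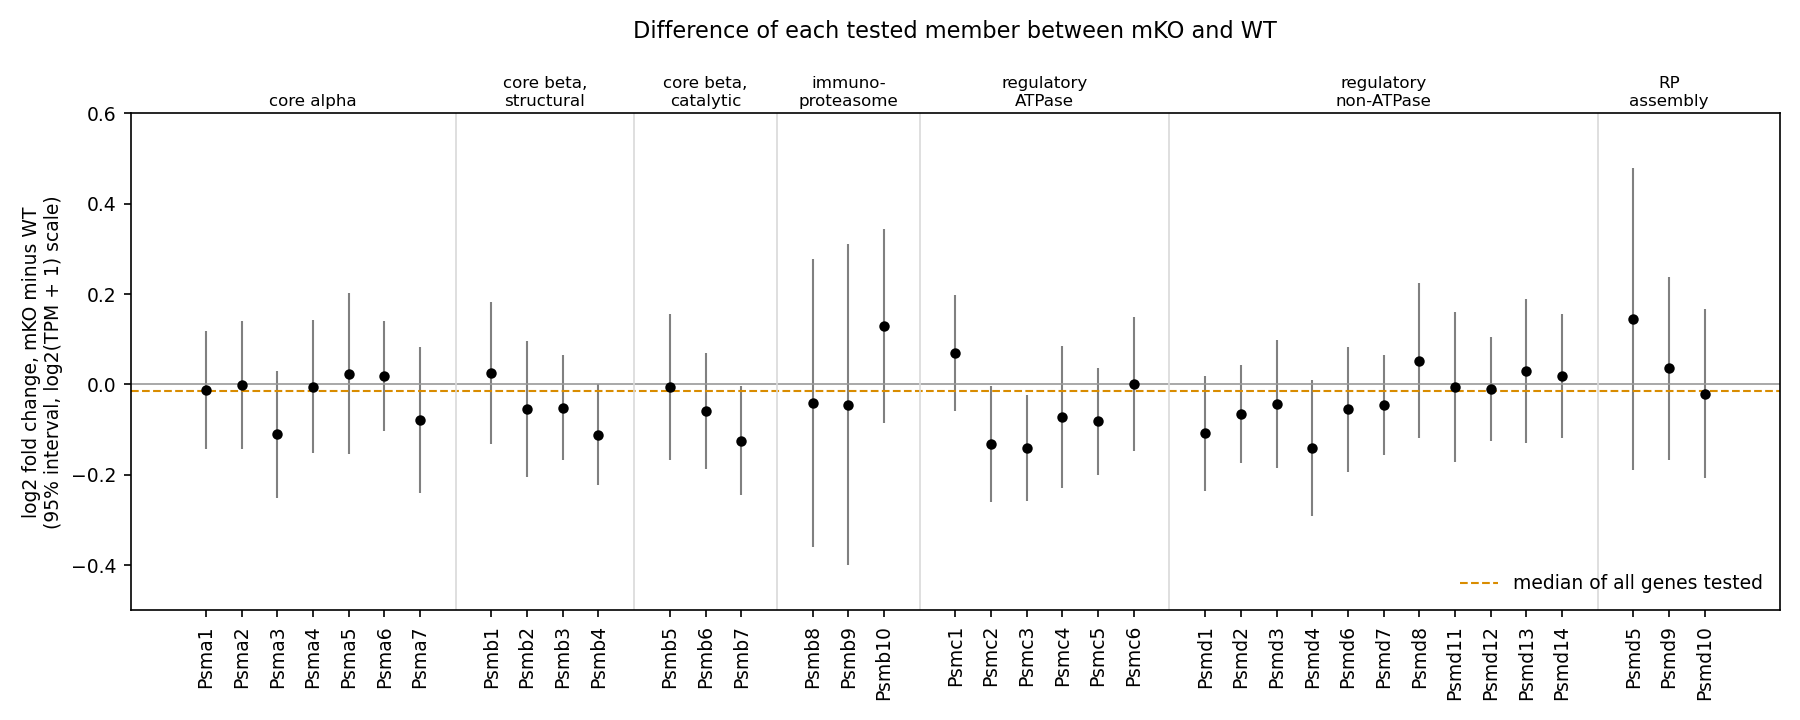
Log2 fold change (log2(TPM + 1), mKO minus WT) of the 37 tested members with 95% intervals from limma, grouped by role, where RP assembly stands for the assembly genes of the regulatory particle. Points lie between −0.14 and 0.14 around the median of all genes tested (dashed, −0.01), and the widest intervals belong to the low genes Psmb8, Psmb9 and Psmd5.

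Among the 14 constitutive core genes, none passed the test, and 11 lay below 0 with a median log2 fold change of −0.03. The 7 alpha genes, which build the gated outer rings, had a median of −0.0048. Psma6 was their most abundant member at 152.6 ± 5.21 TPM in mKO and 150.7 ± 6.51 TPM in WT (SD, n = 3 each). Psma2, also an alpha subunit, was the lowest core gene, with 38.2, 41.7 and 41.3 TPM in mKO, against 42.3, 40.7 and 38.4 TPM in WT. Its groups overlapped almost fully (log2 fold change −0.0015, 95% interval −0.14 to 0.14). Psma5 varied most among the core genes, with 92.5 TPM in mKO replicate 2 and between 75.6 and 81.9 TPM in the other 5 libraries. Psma5 shares 952 bases at 98.63% identity with Gm8394, which has no value in the deposited data, so its counting is less certain.

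The structural beta genes, Psmb1 to Psmb4, had a median of −0.05. Psmb4 had 108, 115 and 106 TPM in mKO, against 117, 119 and 120 TPM in WT. The groups did not overlap, while the log2 fold change of −0.11 (SE 0.05) did not pass the test (adjusted p = 0.471, limma). Psmb1 had the highest log2 fold change of the core, 0.03, with 43.4, 47.4 and 42.8 TPM in mKO, against 45.8, 45.0 and 40.5 TPM in WT.

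The 3 catalytic beta genes carry the protease sites. Psmb5, the chymotrypsin-like subunit and the most abundant of all members, had 167, 195 and 166 TPM in mKO, against 182, 174 and 173 TPM in WT. The mKO libraries lay on both sides of the WT range (log2 fold change −0.0057, 95% interval −0.17 to 0.16). Psmb5 shares 796 bases at 98.87% identity with Gm3375, which has no value in the deposited data, so its level is less certain. Psmb6, the caspase-like subunit, had 89.5, 90.1 and 88.5 TPM in mKO, against 98.7, 93.3 and 87.8 TPM in WT, with overlapping groups (−0.06, adjusted p = 0.779, limma). Psmb7, the trypsin-like subunit, had 88.1, 90.4 and 86.8 TPM in mKO, against 100.2, 97.6 and 91.8 TPM in WT. It was lower in every mKO library than in any WT library, at −0.12 (SE 0.05), and did not pass the test (adjusted p = 0.452, limma). Psmb7 shares 255 bases with the adjoining gene Nek6, which averaged 0.694 TPM, so a small part of its reads may be assigned either way.

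**Figure D2:**
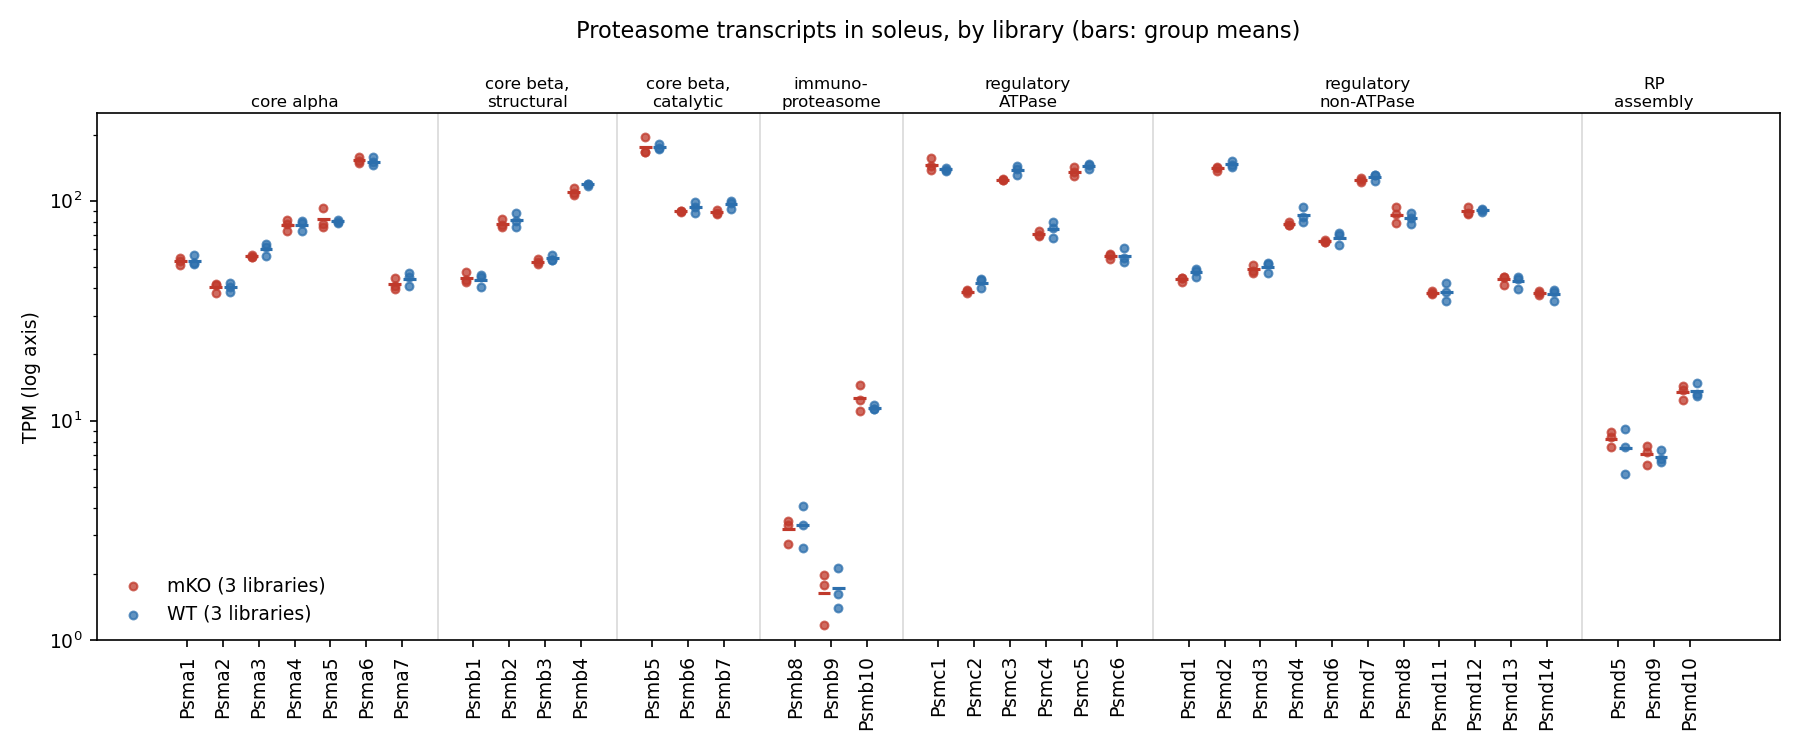
TPM of each tested member in each library on a log axis, with mKO (red) left of WT (blue) and horizontal bars for group means (n = 3 each). Constitutive core and regulatory genes lie between 35.0 and 195 TPM, while the immunoproteasome and assembly genes lie between 1.18 and 14.9 TPM.

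The regulatory particle had 13 of its 20 genes below 0 and a median of −0.03. Its 6 ATPase genes, which form the unfolding ring, had a median of −0.08. Psmc3 had 125, 126 and 124 TPM in mKO, against 139, 143 and 131 TPM in WT, and Psmc2 had 38.0, 39.2 and 38.7 TPM in mKO, against 43.4, 43.9 and 40.0 TPM in WT. In both genes the mKO libraries were close together and below every WT library, with log2 fold changes of −0.14 (adjusted p = 0.363) and −0.13 (adjusted p = 0.457, limma). Psmc1, the most abundant ATPase gene, went the other way in value, with 144, 156 and 139 TPM in mKO, against 141, 137 and 138 TPM in WT (0.07, adjusted p = 0.723, limma). The other 3 ATPase genes, Psmc4, Psmc5 and Psmc6, had overlapping groups.

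Among the 11 non-ATPase subunits 8 lay below 0, with a median of −0.04. Psmd4, a receptor for ubiquitin chains, had 77.2, 79.7 and 77.2 TPM in mKO, against 94.1, 84.2 and 80.4 TPM in WT. Its groups did not overlap, and the log2 fold change of −0.14 (SE 0.07) did not pass (adjusted p = 0.502, limma). Psmd1, a scaffold of the base, had 42.5, 44.4 and 44.7 TPM in mKO, against 48.0, 49.1 and 45.1 TPM in WT, a narrow separation (−0.11, adjusted p = 0.558, limma). Psmd2, the docking scaffold for shuttle factors and the most abundant regulatory gene, had 141, 143 and 137 TPM in mKO, against 152, 143 and 146 TPM in WT (−0.06, adjusted p = 0.691, limma). Psmd14, the deubiquitinase that strips chains from the substrate, was the least abundant of these subunits, with 37.1, 38.8 and 37.9 TPM in mKO, against 39.1, 38.4 and 35.0 TPM in WT. Its groups overlapped (0.02, 95% interval −0.12 to 0.15). Psmd8, a lid subunit, had the highest value of this class, 0.05, with 78.9, 93.3 and 86.7 TPM in mKO, against 87.7, 83.5 and 78.0 TPM in WT.

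Psmd5, Psmd9 and Psmd10 encode chaperones that help to build the base and leave the finished particle. They stood at 6.94 to 13.6 TPM on average, below every subunit of the assembled regulatory particle, the lowest of which averaged 37.7 TPM. Psmd5 had 7.55, 8.37 and 8.85 TPM in mKO, against 9.19, 7.54 and 5.72 TPM in WT, so the WT libraries spread around the mKO libraries. Its log2 fold change of 0.14 (SE 0.14, adjusted p = 0.794, limma) was −0.0131 without WT replicate 3. Psmd9 (0.04) and Psmd10 (−0.02) had overlapping groups.

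Of the 37 tested members, 6 had groups that did not overlap, all lower in mKO. These were Psmb4, Psmb7, Psmc2, Psmc3, Psmd1 and Psmd4. They make up 16.2% of members, and 16% of all genes tested did not overlap in either direction. Lower in mKO without overlap were 10.3% of all genes, and higher in mKO 5.67%, where the members had 0. The share in either direction is near the background and is not a result about the proteasome.

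Summed over a particle, levels in mKO and WT overlapped. The core genes summed to 1109, 1203 and 1115 TPM in mKO, against 1216, 1174 and 1126 TPM in WT, with means of 1142 ± 52.7 TPM in mKO and 1172 ± 44.8 TPM in WT (SD, n = 3 each). In the regulatory particle the sums were 1377, 1443 and 1371 TPM in mKO, against 1495, 1445 and 1382 TPM in WT. The highest sums were in mKO replicate 2 among mKO libraries and in WT replicate 1 among WT libraries, for both particles. The ratio of the regulatory to the core sum was 1.24, 1.20 and 1.23 in mKO and 1.23 in each WT library. All 39 members together took 0.256% ± 0.00923 of all TPM in mKO and 0.263% ± 0.0102 in WT (SD, n = 3 each).

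Within the core sum, which does not depend on the scaling of a library, the makeup shifted by at most 0.52 points for any gene. Psmb4 made up 9.61% ± 0.15 in mKO and 10.1% ± 0.49 in WT, and Psma6 13.4% ± 0.26 in mKO and 12.9% ± 0.12 in WT (SD, n = 3 each). In the regulatory sum the widest shift was that of Psmc1, 10.4% ± 0.34 in mKO and 9.65% ± 0.31 in WT, followed by Psmc3, 8.93% ± 0.20 in mKO and 9.56% ± 0.31 in WT. These shares were not tested, since they were computed over members chosen with results known.

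Members of the assembled particles had their highest and lowest values in libraries of both groups. Of the 31, mKO replicate 2 was the highest library for 8 and WT replicate 1 for 15, beside 30.1% and 17.4% of all genes tested. As a share, the members were thus below all genes for mKO replicate 2 and above them for WT replicate 1. The libraries mKO replicate 3 and WT replicate 3 were each the lowest for 11, and the share of all genes is not reported here for lowest values. The median deviation of the 37 tested members from their mean over all libraries was −0.05, 0.04 and −0.05 on the log2 scale in mKO replicates 1, 2 and 3, against 0.07, 0.03 and −0.06 in WT replicates 1, 2 and 3. For all genes tested the same medians were −0.04, 0.04 and −0.02 in mKO and 0.02, 0.04 and −0.03 in WT, so both quantities were above 0 in mKO replicate 2 and in WT replicates 1 and 2 and below 0 elsewhere.

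**Figure D3:**
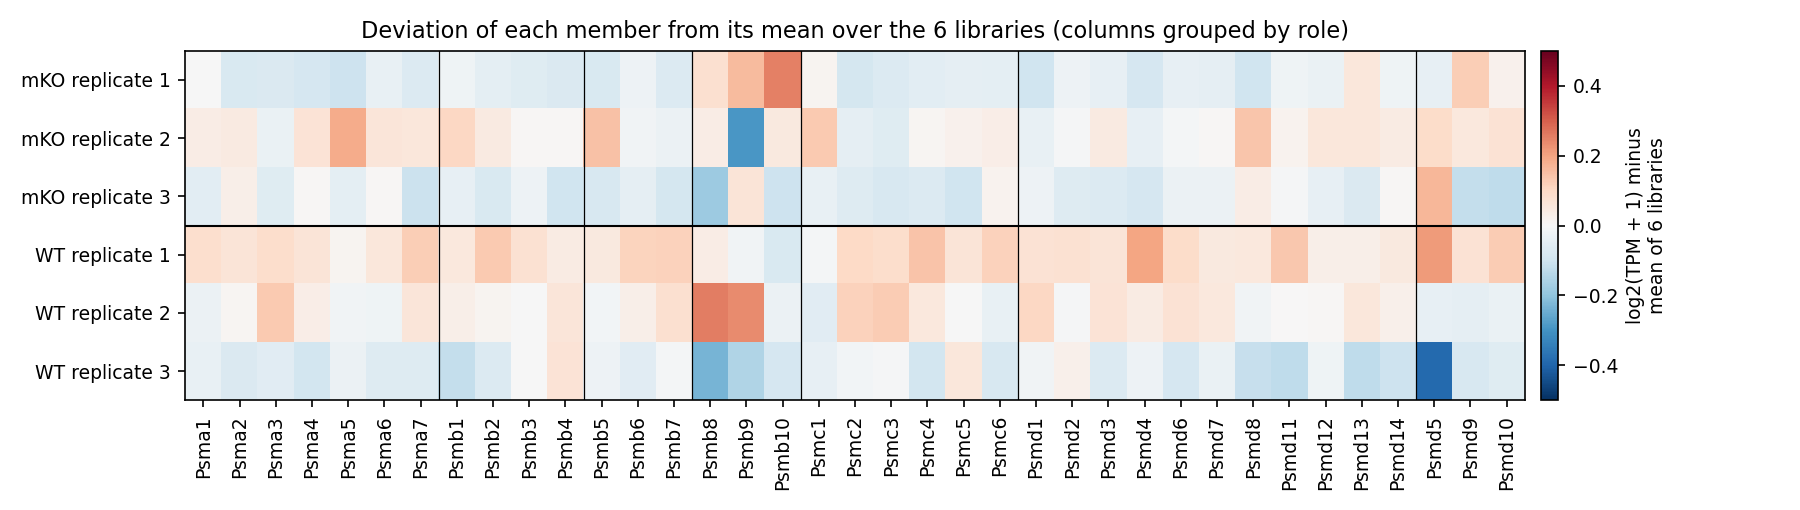
Deviation of log2(TPM + 1) from the mean over 6 libraries for each tested member (columns, grouped by role as in the plot of TPM by library) in each library (rows, mKO above WT). WT replicate 1 is above the mean for 34 of 37 members, mKO replicate 1 for 7 and WT replicate 3 for 3, and the strongest colours fall on the low genes Psmb8, Psmb9, Psmb10 and Psmd5.

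Immunoproteasome transcripts were low in soleus and did not pass the test. Psmb8, which replaces Psmb5, had 3.49, 3.36 and 2.75 TPM in mKO, against 3.36, 4.07 and 2.62 TPM in WT (log2 fold change −0.04, 95% interval −0.36 to 0.28). Psmb9, which replaces Psmb6, had 1.97, 1.18 and 1.79 TPM in mKO, against 1.63, 2.14 and 1.40 TPM in WT (−0.04, 95% interval −0.40 to 0.31). The WT range enclosed that of mKO for Psmb8 and most of it for Psmb9. Psmb10, which replaces Psmb7, was the most abundant of the 3, with 14.5, 12.4 and 11.1 TPM in mKO, against 11.3, 11.7 and 11.2 TPM in WT, and the lowest mKO library lay below all WT libraries (0.13, adjusted p = 0.688, limma). Psmb9 shares 212 bases with the adjoining Tap1. Psmb8 and Psmb9 were counted from few reads, 186 to 288 per library for Psmb8 and 94 to 164 for Psmb9, and the part of depth in their wide intervals was not tested.

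Relative to the subunit that it replaces, Psmb8 stood at 2.10%, 1.72% and 1.66% of Psmb5 in mKO, against 1.85%, 2.34% and 1.52% in WT. Psmb9 stood at 2.20%, 1.31% and 2.02% of Psmb6 in mKO, against 1.65%, 2.30% and 1.599% in WT. These ranges overlapped. Psmb10 was at 16.4%, 13.7% and 12.8% of Psmb7 in mKO, against 11.3%, 12% and 12.25% in WT, without overlap. How often ratios of other gene pairs do not overlap is not reported here. Psmb7 was lower in every mKO library than in any WT library, and Psmb10 was above all WT libraries in mKO replicates 1 and 2. The part of each gene in the ratio was not tested. The mean difference of the ratio was 2.46 points and 1.41 points without mKO replicate 1, and it was not tested.

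**Figure D4:**
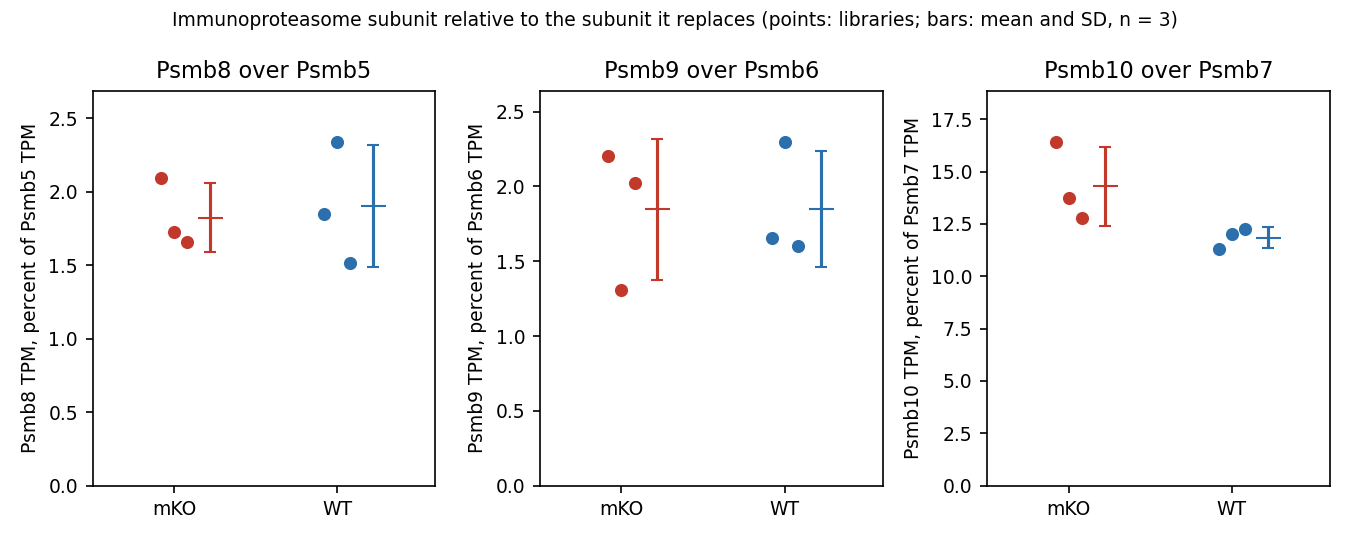
Each immunoproteasome gene as a percent of the constitutive gene whose subunit it replaces, per library, mKO left of WT, with mean and SD (n = 3 each). Psmb8 and Psmb9 lie between 1.31% and 2.34% with overlapping groups, and Psmb10 lies between 12.8% and 16.4% in mKO and between 11.3% and 12.25% in WT.

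Genes of interferon response and MHC class I, which share regulation with the immunoproteasome, had 0 calls among 18 tested and a median of 0.02. Their largest difference was in Tap1, a peptide transporter that adjoins Psmb9, at 0.18 (adjusted p = 0.751, limma). WT replicate 2 was the highest library for 12 of the 18 genes and for Psmb8 and Psmb9, while WT replicate 3 was the lowest for 10 of them and for Psmb8. Over all genes tested, WT replicate 2 was the highest library for 24.89%, and the share for lowest values is not reported here. The 18 genes include Psme1 and Psme2, which are also listed as proteasome activators. B2m, the light chain of MHC class I, had 230, 229 and 248 TPM in mKO, against 230, 269 and 206 TPM in WT, with the 2 extremes both in WT. B2m was chosen after its values were seen. Macrophages also express these genes, and 10 macrophage markers summed to 121, 219 and 174 TPM in mKO, against 151, 165 and 141 TPM in WT. All 10 were detected in every library, and their part in the level of the immunoproteasome genes was not tested. T cell markers summed to 0.82 TPM at most, with Cd3e at 0 in all libraries. The 6 B cell markers summed to 30.2, 57.6 and 63.8 TPM in mKO, against 68.1, 56.7 and 41.7 TPM in WT, of which Cd74, a gene of antigen-presenting cells in general, gave 26.7, 54.9 and 59.2 TPM in mKO and 65.1, 53.7 and 39.4 TPM in WT. Ighm ran from 1.34 to 1.95 TPM in mKO and from 1.17 to 1.96 TPM in WT, and Cd79b from 1.09 to 2.13 TPM in mKO and from 0.962 to 1.148 TPM in WT. Of the 6 markers, 3 passed the filter on low values. The part of B cell RNA in these results was not tested.

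The core subunits restricted to other tissues were at or near 0. Psma8, the alpha subunit of the testis, had 8, 0 and 2 reads in mKO, against 0, 2 and 4 reads in WT, so at most 0.157 TPM. Psmb11, the catalytic subunit of the thymic cortex, had 1 read in WT replicate 1 and was listed at 0 in the other 5 libraries. Neither was tested, and with so few reads no fold is given.

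No gene of the wider pathway passed the test either. Of 75 genes in the lists of partners, ubiquitin, NRF1 signalling, interferon and atrophy ligases, 73 were tested and 0 were called. At an unadjusted p under 0.05 there were 7 (9.59%, against 10.7% of all genes), and 14 had groups without overlap (19.2%, against 16%). The 5 chaperones that assemble the core had a median of −0.0044, with the widest difference in Psmg2 (0.15, adjusted p = 0.491). Of the 5 activators and inhibitors of the core, the inhibitor gene Psmf1 differed most (0.11, adjusted p = 0.715), and of 11 further parts and partners of the regulatory particle, the deubiquitinase gene Uchl5 did (−0.21, adjusted p = 0.486, limma).

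The 6 genes of ubiquitin and its activating enzymes had 0 calls and a median log2 fold change of −0.05, with 4 below 0. The 10 shuttle and extraction genes, which bring ubiquitinated proteins to the proteasome, had 0 calls and a median of −0.06, with 8 below 0.

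Nfe2l1 was abundant and its groups overlapped, with 534.5, 584.0 and 566.0 TPM in mKO, against 543.3, 540.7 and 532.3 TPM in WT (0.06, adjusted p = 0.743, limma). It was chosen after its values were seen. Of 11 genes of the NRF1 list, 0 were called, with a median of −0.03. The list also holds targets of the related factor NRF2, and of these Nqo1, a quinone reductase, differed most. The others, Gclm (−0.02), Hmox1 (0.11) and Txnrd1 (−0.06), had overlapping groups. Nfe2l2, the gene of NRF2, was lower in mKO without overlap (−0.09, adjusted p = 0.638, limma). Nqo1 had 61.2, 48.6 and 40.8 TPM in mKO, against 36, 31.4 and 28.03 TPM in WT, without overlap. Its log2 fold change of 0.63 (SE 0.15) did not pass (adjusted p = 0.157, limma), and of the settings run it passed with the replicate number as a block alone (adjusted p = 0.0422, and up to 0.493 elsewhere). Of 10 ubiquitin ligase genes of atrophy, 0 were called. Trim63 (MuRF1) had 107, 118 and 161 TPM in mKO, against 161, 209 and 216 TPM in WT, with groups that overlapped at their edges (−0.61, adjusted p = 0.217, limma). It passed without mKO replicate 3 (−0.781, adjusted p = 0.0485), and over the other settings its adjusted p reached 0.609.

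The direction of the small differences depended on how libraries were scaled. When genes of the mitochondrial genome were removed before rescaling, the median over all genes moved to 0.09, that of the core to 0.08 and that of the regulatory particle to 0.08. Only 4 of the 37 members then lay below 0, while 20 lay below the median of all genes, the same number as without the rescaling. With scaling by median of ratios the 3 medians were 0.00094 for all genes, −0.01 for the core and −0.01 for the regulatory particle, and 20 of the 37 lay below 0. The members were called in none of the 13 other settings run.

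**Figure D5:**
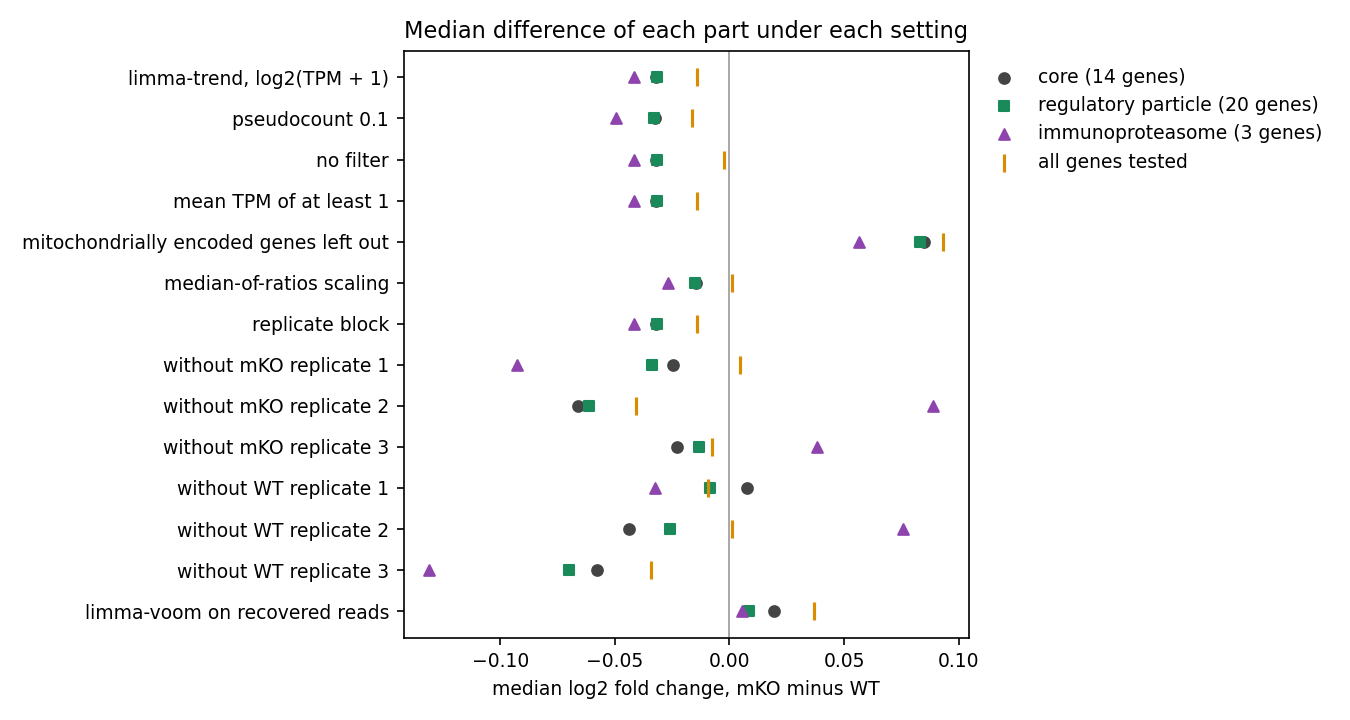
Median log2 fold change (mKO minus WT) of the core, the regulatory particle, the immunoproteasome and all genes tested under each setting. Core and regulatory medians run from −0.07 to 0.08 across settings and that of all genes from −0.04 to 0.09, and the median of the 3 immunoproteasome genes moves most when a library is left out.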

How the data were processed

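RNA was measured in soleus of 3 mKO and 3 WT libraries, poly(A)-selected and directional per the labels' protocols. For each library the authors deposited TPM values by gene. Per the submitters' processing notes, GRCm39 was the genome build. Aligner, counting tool and use of strand are not given in the sources used here. Groups came from the labels.

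The filter kept genes that reached 1 TPM in 3 libraries or more. On the log2 scale, with a pseudocount of 1 TPM added, genotype was fitted by limma-trend (limma 3.58.1 under R 4.3.3) with no other term. Adjusted p is the Benjamini-Hochberg value over all genes tested, with a threshold of 0.05. Fold changes on this scale understate changes of low genes. Intervals are limma's 95% intervals for a single gene. The fit was tested on simulated data with changes larger than any difference of the members. That test therefore does not show whether differences as small as theirs could be detected.

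TPM times exon length (GENCODE M21) and a scale per library gave whole reads, within 0.05 reads, for 93.13% of 22729 genes. These served for depth and for limma-voom. No library was a duplicate of another in its group, since pairs within a group gave chi-square values of 18.4 to 35.2 per degree of freedom. Pairs of an mKO and a WT library were not compared in this way. These values do not show whether the libraries came from different animals. Of 39 members, 16 share 200 bases or more at 95% identity or more with another gene, mostly pseudogenes and adjoining genes such as Tap1 and Sirt3, so their counting is less certain.

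The members, lists and motifs were chosen with earlier results of these data known. The naming rule took the catalytic, immunoproteasome and tissue-restricted subunits, the extremes in level and difference of each role, and the widest difference of each other list, except in lists where it is not reported here. Members without overlap, Psma5, Psma6, B2m, Nfe2l1, Nfe2l2, Gclm, Hmox1 and Txnrd1 were added after their values were seen. Alternatives were another pseudocount, other filters, other scalings, limma-voom, a block for the replicate number, and leaving out single libraries.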

Additional observations from a re-analysis of the deposited data

How the results depend on the processing

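The count of called members, 0, held in all 13 other settings. The widest intervals were those of Psmb8, Psmb9 and Psmd5; the part of depth in them was not tested. The labels do not say what libraries of the same replicate number share. Deviations of same-numbered libraries correlated at 0.095, 0.047 and 0.131, each library correlating best with its own number. The other pairs of an mKO and a WT library correlated at −0.093 to 0.001, and the source of this was not tested. The replicate block gave 21 calls over all genes in place of 64 (5 higher, 16 lower) and 1 in the pathway lists, Nqo1, and changed no call of a member. No filter gave 6 calls (2 higher, 4 lower), mitochondrially encoded genes left out gave 41 (21 higher, 20 lower), median of ratios 41 (30 lower), and limma-voom 92 (35 higher). The cause was not tested. Leaving out each library gave 4 to 94 calls, 1 to 18 higher and 3 to 76 lower, with 0 to 1 in the pathway lists, which was Trim63. Stard7 lost its call with no filter (adjusted p = 0.0858) and without WT replicate 2 (−1.81, adjusted p = 0.0703), and lay between −2.05 and −1.72 with a library left out.

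With mitochondrially encoded genes left out, the medians were 0.0847 for the core and 0.0829 for the regulatory particle, and the summed TPM was higher in mKO by 5.76% and 5.24% of WT. By construction this raises nuclear genes about alike. With a library left out, the medians ran from −0.0662 to 0.0077 for the core, −0.131 to 0.089 for the immunoproteasome and −0.0699 to −0.0083 for the regulatory particle, and the sums from −5.12% to −0.663%, −1.26% to 11.8% and −4.97% to −1.17%. The differences in points were −0.27 to 0.141 for Psmb8 over Psmb5, −0.183 to 0.264 for Psmb9 over Psmb6 and 1.41 to 3.23 for Psmb10 over Psmb7.

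No member had a call, and 22 of 37 changed sign with mitochondrially encoded genes left out. Among those named by the rule or without overlap, these were Psma2 (0.115), Psmb4 (0.00627), Psmb5 (0.112), Psmb6 (0.0583), Psmb8 (0.0565), Psmb9 (0.0351), Psmd1 (0.00772), Psmd10 (0.0924) and Psmd2 (0.0527). By median of ratios 6 of 37 changed sign, among them Psma2 (0.0158) and Psmb5 (0.0119), and by limma-voom 10 of 36, among them Psma2 (0.0507), Psmb5 (0.0476), Psmb8 (0.00533) and Psmd10 (0.03). With a library left out, 5 to 7 of 37 changed sign, and of the same named members those that crossed 0 were Psma2 (−0.0379 to 0.0372), Psmb1 (−0.0281 to 0.0585), Psmb5 (−0.0807 to 0.0336), Psmb8 (−0.168 to 0.0756), Psmb9 (−0.135 to 0.089), Psmd10 (−0.0621 to 0.0373), Psmd14 (−0.0291 to 0.0476), Psmd5 (−0.0131 to 0.287), Psmd8 (−0.00422 to 0.115) and Psmd9 (−0.0163 to 0.104).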
